A study of Mus musculus with 18 samples.

Results

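The HOX genes were examined across a single-cell RNA-seq atlas of the mouse mammary gland. Members were taken by symbol, as every annotated feature named Hoxa, Hoxb, Hoxc or Hoxd followed by a number, which gave 40 of the 31053 features of the count matrices. These 40 features carry 39 symbols, because Hoxd4 is listed under 2 Ensembl identifiers. In total, 56028 unique molecular identifiers (UMIs, each standing for 1 captured mRNA molecule) of HOX genes were counted in 132623 kept cells of 18 libraries. A member was described with its own values where it had at least 200 UMIs, and 24 members did.

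HOX genes encode homeodomain transcription factors that assign position along the body axis of the embryo and along the limbs. In the mouse they lie in 4 clusters, and their order along each cluster follows the order of their expression domains, with low-numbered paralogues active towards the head and high-numbered paralogues towards the tail and the limb tips. Adult connective tissue cells often keep the HOX code of the place where they arose, and the paralogues Hoxa9, Hoxb9 and Hoxd9 are known to be needed together for growth of the mammary gland in pregnancy. Here the HoxA cluster on chromosome 6 had 11 features and 9864 UMIs, the HoxB cluster on chromosome 11 had 10 features and 26396 UMIs, the HoxC cluster on chromosome 15 had 9 features and 15850 UMIs, and the HoxD cluster on chromosome 2 had 9 features with coordinates and 3913 UMIs.

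The libraries were made with the 10x 3′ kit from cells sorted as mammary epithelium, apart from 1 library of E18.5 skin. The C57BL/6 libraries came from E18.5 mammary rudiments and the skin beside them, which were dissected from Lgr5-GFP embryos under fluorescence, and from glands at postnatal day 5, at 2.5 weeks (pre-puberty), at 5 weeks, where ducts and their growing tips, the terminal end buds (TEBs), were dissected apart from E-cadherin-GFP females, and at 10 weeks. A 10-week SWISS library and 10 FVB/NJ libraries completed the series, of which 3 were adult (A10, P7 and D12, 10 weeks), 2 at pregnancy day 12.5 (H and G), 2 at pregnancy day 18.5 (F4 and B4), 2 at lactation day 10 (F11 and D6) and 1 after involution. The labels count the 3 weeks of this last stage from birth and the study's text from weaning, so its age is in doubt. Several animals were pooled in a library, so p-values measure the spread between libraries and not between animals. By the study's description the TEB and duct libraries appear to come from the same mice, so they may not be independent where both are used. The sort was set to remove blood and endothelial cells, so stromal cells in these libraries are those that the gates let through, and the adult mice were not staged for estrus.

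Each library held 9920346 to 93234616 UMIs and 1700 to 13398 kept cells, with a median of 2497 to 21609 UMIs per cell. The adult library P7 stood apart, with cell barcodes of 14 bases against 16 in the other 17. Cells were assigned to classes by marker genes that include no HOX gene, which gave 42369 basal cells and 57345 luminal cells in 17 mammary libraries, 2597 fibroblasts in 11 of these and 528 Schwann cells in 3. The gates were checked with markers held out of them. The held-out basal list was higher in basal than in luminal cells in 17 of 17 libraries and than in fibroblasts in 10 of 11, but in E18.5 mammary its summed level was 839 in basal cells, 5438 in fibroblasts and 8226 in Schwann cells, and it was higher in Schwann than in basal cells in 3 of 3. It therefore does not tell basal from stromal cells at E18.5, where held-out fibroblast markers were at 84.8 in basal cells and 1131 in fibroblasts. In E18.5 mammary the held-out luminal list was at 1524 in basal and 2062 in luminal cells. There, 71.7% of basal and 52.1% of luminal cells had a lead of exactly 2 markers, the least allowed. The study found E18.5 cells closer to the basal lineage, with little sign of separate lineages. Basal and luminal are thus only names of gates in that library. The luminal list was higher in luminal cells in 13 of 17 (not in F4, B4, F11 and D6), and the fibroblast list was higher in fibroblasts than in luminal cells in 11 of 11. These checks were counted over all UMIs of a class, with the milk genes in. In fibroblasts of F11 and D6 the fibroblast list was at 2868 and 5266 in this count and at 5329 and 6270 without milk genes. The luminal check of F4, B4, F11 and D6 was not repeated without milk genes, so its result there is uncertain. A level below is the number of UMIs of a gene per 1000000 UMIs of the same library and class, counted without 8 milk protein genes. Since the kit tags 1 end of each molecule, levels were not scaled by gene length. A summed level cannot tell fewer expressing cells from less RNA per cell.

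The make-up of HOX expression is given by class, over all libraries of a class. In basal cells the pooled level of all HOX genes was 46.8, and Hoxb2, Hoxb3 and Hoxb4 together gave 65.7% of the HOX UMIs, or 90.2% without the E18.5 and postnatal day 5 libraries. In luminal cells the HOX level was 24.6, with 93.4% from these 3 genes, or 94.8% without those 2 libraries. Without them the pooled HOX level was 33.1 in basal and 24.7 in luminal cells. Postnatal day 5 alone held 2943 of the 9080 HOX UMIs of basal cells. Single libraries lay well below the pooled shares of the 3 genes. In basal cells the 3 genes gave 17.2% at postnatal day 5, 25.8% at E18.5, 31.1% in D6 and 61.3% in F11, against 85.7 to 99.4% in the other 13. In luminal cells they gave 44.0% in D6, 51.9% in F11, 57.8% at E18.5, 74.9 and 77.3% at pregnancy day 12.5 and 79.3% at postnatal day 5, against 89.7 to 99.4% in the other 11. In fibroblasts the HOX level was 312, and 57.3% of it came from the HoxC cluster, 23.7% from HoxB, 13.98% from HoxA and 5.10% from HoxD. Without the E18.5 and postnatal day 5 libraries 67.4% came from HoxC and 13.4% from HoxB. In Schwann cells the level was 65.0, with 65.8% from HoxB, 19.9% from HoxD and 8.70% from HoxC.

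**Figure D1:**
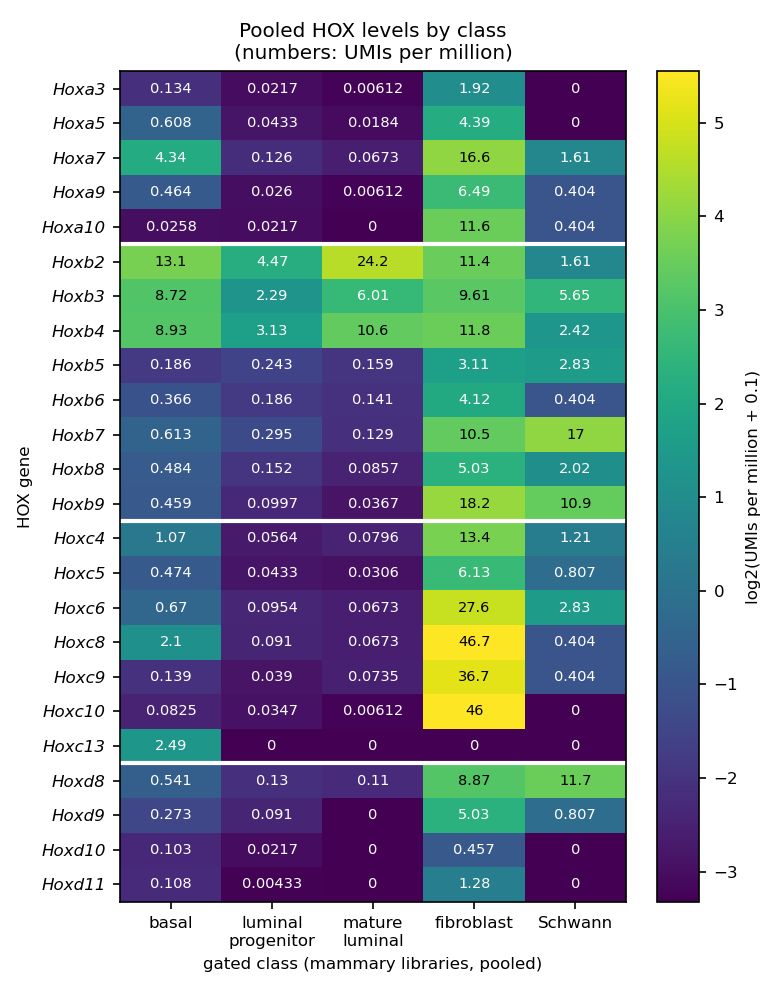
Heat map of the pooled level of the described HOX genes in 5 gated classes of the mammary libraries, with genes ordered by cluster. The number in a cell is UMIs per 1000000, and the colour is its log2 with 0.1 added. Hoxb2, Hoxb3 and Hoxb4 are present in basal and luminal cells, whereas the HoxC genes from Hoxc4 to Hoxc10 stand out in fibroblasts.

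The sequences just upstream of Hoxb4, a member found in every epithelial class, and of Hoxa10, a member found in fibroblasts and scarcely in epithelium, are shown for their content of CpGs. A CpG is a C followed by a G, a site at which DNA can be methylated. Both are the 250 bases before an annotated start (RefSeq, GRCm38.p6), written 5′ to 3′ on the gene's strand with each CpG in capitals. The Hoxb4 window lies at chr11:96318017-96318266 on the plus strand and holds 14 CpGs. The Hoxa10 window lies at chr6:52240855-52241104 on the minus strand, before the more upstream of 2 listed starts, and holds 7 CpGs, while the window before the other start, at chr6:52234940-52235189, holds 20. None of the 3 windows overlaps an annotated exon.
Hoxb4: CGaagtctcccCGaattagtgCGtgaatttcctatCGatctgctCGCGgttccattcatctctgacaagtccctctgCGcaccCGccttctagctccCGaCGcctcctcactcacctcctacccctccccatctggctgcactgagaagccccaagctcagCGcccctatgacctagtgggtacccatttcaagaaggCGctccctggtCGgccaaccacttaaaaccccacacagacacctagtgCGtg
Hoxa10: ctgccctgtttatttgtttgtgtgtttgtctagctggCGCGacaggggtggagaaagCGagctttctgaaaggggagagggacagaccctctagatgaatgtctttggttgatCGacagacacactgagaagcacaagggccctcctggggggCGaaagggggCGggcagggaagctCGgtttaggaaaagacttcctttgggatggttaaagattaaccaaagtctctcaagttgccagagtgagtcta
Over the 24 windows available for 22 HOX genes the median was 12.5 CpGs, against 6 over 32851 windows of all genes. The motif TGATNNAT, to which HOX and PBX proteins bind together, was searched on both strands and was in 4 of the 24 HOX windows (16.7%) and in 7.68% of all windows.

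Hoxb2, Hoxb3 and Hoxb4 were the HOX genes found in all 17 mammary libraries in both epithelial layers. Their lowest summed counts in a library were 12, 3 and 7 UMIs in basal cells and 22, 6 and 9 UMIs in luminal cells. The genes are neighbours, within 35746 bases of chromosome 11 from 96318267 to 96354012 (mm10). Hoxb2 is known for its role in the hindbrain, Hoxb3 acts in the hindbrain and pharyngeal arches, and Hoxb4 is known for the expansion of blood stem cells.

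In basal cells the level of Hoxb2 was 3.98 at the lowest (A10), 10.2 at the median and 45.0 at the highest (TEB), over 17 libraries. That of Hoxb3 ran from 1.22 (E18.5) through a median of 7.50 to 19.7 (pre-puberty), and that of Hoxb4 from 3.17 (SWISS) through 8.82 to 19.9 (B4). In luminal cells the corresponding values were 1.77 (H), 8.44 and 38.1 (TEB) for Hoxb2, 0.578 (D6), 2.88 and 13.96 (pre-puberty) for Hoxb3, and 0.866 (D6), 5.53 and 13.8 (TEB) for Hoxb4. The ranges of the 2 layers overlapped for each gene. By the median the order was Hoxb2, Hoxb4 and Hoxb3 in both layers, but the ranges of the 3 genes overlapped in each layer and the order was not tested.

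**Figure D2:**
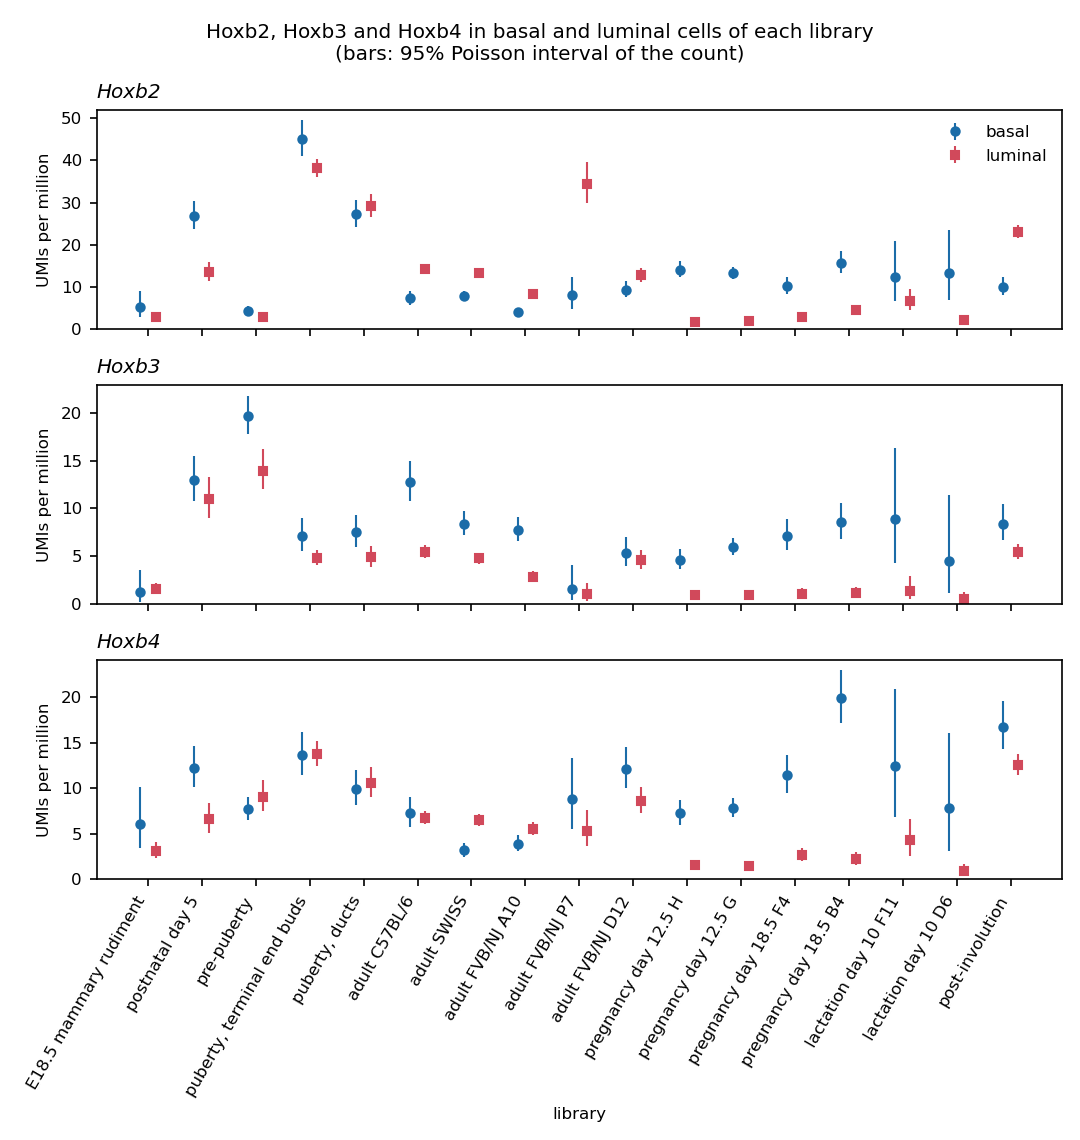
Levels (UMIs per 1000000) of Hoxb2, Hoxb3 and Hoxb4 in basal and luminal cells of each mammary library in developmental order, with bars for 95% Poisson intervals, which cover counting error only. Hoxb2 is highest in the TEB library in both layers, and in pregnancy and lactation its luminal values lie below the basal ones.

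The luminal layer was then compared with the basal layer within 17 libraries, by edgeR's quasi-likelihood test with the library as a block. Of 18 HOX genes that passed the filter of 50 UMIs over the comparison, 12 were lower and 1 was higher in luminal cells at an adjusted p under 0.05, whereas among all 16609 genes tested 30.8% were lower and 32.8% higher. The median log2 difference was −2.11 over the HOX genes tested and 0.03 over all genes. Without the E18.5 and postnatal day 5 libraries it was −0.48 over the 12 HOX genes that then passed the filter and 0.07 over all genes. The filter adds the 2 layers, so a gene that is low in one layer passes through the other, and the counts describe these 18 genes and not all 40 members. Hoxb3 was lower in luminal cells by a log2 difference of −1.13 ± 0.22 (SE, adjusted p = 0.000149), in 16 of 17 libraries. Hoxb4 was lower in 12 of 17, by −0.74 ± 0.27 (adjusted p = 0.0209), but without the library of pregnancy day 12.5 G the difference was −0.59 (adjusted p = 0.0598). For Hoxb2 the difference was −0.33 ± 0.33 (adjusted p = 0.395), with lower values in 10 of 17.

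For Hoxb3 and Hoxb4 separate fits for 2 strains gave different values. Over the FVB/NJ libraries alone it was −1.64 for Hoxb3 and −1.29 for Hoxb4, both past the threshold. Over the C57BL/6 libraries alone it was −0.49 for Hoxb3 (adjusted p = 0.103) and −0.17 for Hoxb4 (adjusted p = 0.588). The difference between the strains was not tested. Both strains have adult libraries, but only C57BL/6 covers the stages before and only FVB/NJ those after. Barcode set 2 holds C57BL/6 but no FVB/NJ libraries, so strain, stage and barcode set cannot be told apart in these fits.

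Outside this trio, the genes that were lower in luminal cells had low levels in both layers in most libraries. Hoxa7, a gene of the thoracic level, had 0, 0.549 and 73.9 as its lowest, median and highest level in basal cells and 0, 0.0392 and 2.20 in luminal cells. It was lower in luminal cells in 14 libraries, higher in 1 and tied in 2, with a log2 difference of −3.73 ± 0.40 (adjusted p = 1.82e-08). Hoxc4 and Hoxc5, which begin the HoxC cluster, were lower in luminal cells in 14 of 17 libraries and tied in 3, by −3.52 ± 0.40 and −2.87 ± 0.31 (adjusted p = 2.68e-08 and 1.03e-08). Basal levels of Hoxc4 were 0, 0.915 and 5.04, against 0, 0.0182 and 0.689 in luminal cells. The annotated Hoxc5 gene spans Hoxc6 and Hoxc8 to Hoxc10 on the same strand, so reads could be shared between these genes and values of Hoxc5 are uncertain. Hoxb9, whose paralogue group acts in the gland in pregnancy, was also lower (−2.21 ± 0.40, adjusted p = 2.35e-05). Fibroblast markers held out of the gates were also higher in basal than in luminal cells, in 17 of 17 libraries. Counted over all UMIs with the milk genes in, their summed levels were 23.7, 106 and 453 (lowest, median, highest) in basal cells. In luminal cells they were 4.61, 19.999 and 164. The part of fibroblast RNA in the luminal against basal differences of Hoxa7, Hoxb9 and the HoxC genes was not tested.

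The calls of Hoxa5, Hoxa9, Hoxc6, Hoxc8, Hoxc13 and Hoxd9 as lower in luminal cells needed the youngest libraries. Without the E18.5 and postnatal day 5 libraries these 6 genes fell under the filter. By DESeq2 over all 17 libraries Hoxd9 (−1.69, adjusted p = 0.641), Hoxa9 (−0.94, adjusted p = 0.802) and Hoxc13 (−1.87, adjusted p = 0.603) were not called either. In the edgeR fit without the young libraries 5 of 12 HOX genes tested were lower in luminal cells and 3 were higher, against 29.9% lower and 35% higher among 16354 genes. Hoxa7, Hoxb3, Hoxb9, Hoxc4 and Hoxc5 were lower, and Hoxb4 stood at −0.69 (adjusted p = 0.0554). Hoxb5, Hoxb6 and Hoxb7 were higher. For Hoxb6 the difference was 3.19 ± 0.67 (adjusted p = 0.00097), against 1.23 over all 17 libraries, where it was not called but higher in 15. For Hoxb7 it was 1.90 ± 0.50 (adjusted p = 0.00179), against 0.46 over all, where it was not called but higher in 12. Hoxa9 lost the call in 10 of the fits that leave out 1 library, the largest adjusted p being 0.0921 without E18.5, where its difference was −2.42. The one gene called higher in luminal cells over all 17 libraries, Hoxb5, which acts in the enteric neural crest, had a difference of 1.14 ± 0.50 (adjusted p = 0.0476). That call was lost in 22 of 31 alternatives, among them the removal of the pre-puberty library (1.09, adjusted p = 0.0792) or of pregnancy day 12.5 H (1.06, adjusted p = 0.0881), whereas without E18.5 and postnatal day 5 it was 1.96 ± 0.43 (adjusted p = 0.00037).

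The basal cells of postnatal day 5 stood apart. Their level of Hoxa7 was 73.9, of Hoxc13, which is needed for hair and nail formation, 49.3, and of Hoxc8, a thoracic gene of motor neurons and rib cage, 36.5. Epidermal markers summed to a level of 1095 in the same cells and to 697 in E18.5 basal cells, against 32.5 to 417 in basal cells of the other libraries. These are the markers of the epidermal gate itself, and they are not specific to epidermis. In luminal cells they ran from 103 (B4) to 4054 (adult C57BL/6), with 1603 at postnatal day 5. In mammary fibroblasts they ran from 135 (F11) to 1287 (A10). In postnatal day 5 basal cells with at least 2 of Acta2, Mylk and Cnn1, the contractile genes of myoepithelium, the levels were 7.57 for Hoxa7, 9.90 for Hoxc13 and 5.82 for Hoxc8, with epidermal markers at 816. Cells in the epidermal gate of this library had 96.9 for Hoxa7, 16.6 for Hoxc8 and 1.81 for Hoxc13. All luminal sums of Hoxc13 were 0, so no fold is given for it, and the part of epidermal cells in these values was not tested.

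Basal cells of the lactation library D6 had 21.2 for Hoxd9, 11.2 for Hoxd8 and 8.93 for Hoxa7. Endothelial markers summed to 340 in these cells and to 99.5 in the other lactation library F11, against 3.73 to 11.8 elsewhere. The part of endothelial RNA in the basal levels of Hoxd8, Hoxd9 and Hoxa7 was not tested.

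Within the luminal layer, mature luminal (ML, hormone-responsive) cells were compared with luminal progenitor (LP) cells in 17 libraries. The LP sub-gate uses Elf5, Kit, Aldh1a3, Cd14, Csn3, Trf, Wfdc18 and Lcn2, so it takes in alveolar cells, which make milk, beside progenitors. In pregnancy and lactation the name LP therefore stands for both. At E18.5, where the study saw little sign of separate lineages, ML and LP are only names of gates. Of 6 HOX genes tested, 3 were higher in ML cells and none was lower by edgeR's quasi-likelihood test, while 20% of 15372 genes were higher and 24.5% lower. These 3 were again Hoxb2, Hoxb3 and Hoxb4. The total HOX level of a library was 9.43, 43.9 and 104 (lowest, median, highest) in ML and 4.15, 13.4 and 37.3 in LP cells, and was higher in ML cells in 16 of 17 libraries, not in E18.5. The ML cells of D6, F11, E18.5, F4 and H held 2, 4, 6, 13 and 13 HOX UMIs in all. Directions in these libraries, for single genes too, rest on few molecules.

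Hoxb2 had a lowest, median and highest level of 0, 20.04 and 77.0 in ML cells and of 1.53, 4.49 and 19.8 in LP cells. It was higher in ML cells in 15 of 17 libraries, with a log2 difference of 1.93 ± 0.30 (adjusted p = 1.2e-05). Hoxb4 was higher in 17 of 17, with ML levels of 4.71, 9.17 and 43.9, LP levels of 0.487, 3.07 and 8.89 and a difference of 1.30 ± 0.27 (adjusted p = 0.000317). Hoxb3 was higher in 12 of 17, from 0, 5.43 and 14.9 in ML and 0.585, 1.54 and 13.0 in LP cells, with a difference of 1.02 ± 0.27 (adjusted p = 0.0025). All ranges overlapped, and the lowest ML value of Hoxb2 and the highest of Hoxb4 came from D6, which had 22 ML cells, and the highest of Hoxb2 from F4, which had 36.

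Hoxb5, Hoxb6 and Hoxb7 differed by −0.61, −0.21 and −0.94 between ML and LP cells and did not pass the test. The FVB/NJ libraries include pregnancy and lactation, where the LP sub-gate takes in alveolar cells. The differences were larger over the FVB/NJ libraries. Over these alone they were 2.87 for Hoxb2, 2.23 for Hoxb4 and 1.83 for Hoxb3, and over the C57BL/6 libraries alone they were 0.75 (adjusted p = 0.0154), 0.38 (adjusted p = 0.0863) and 0.36 (adjusted p = 0.308). The difference between the strains was not tested.

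**Figure D3:**
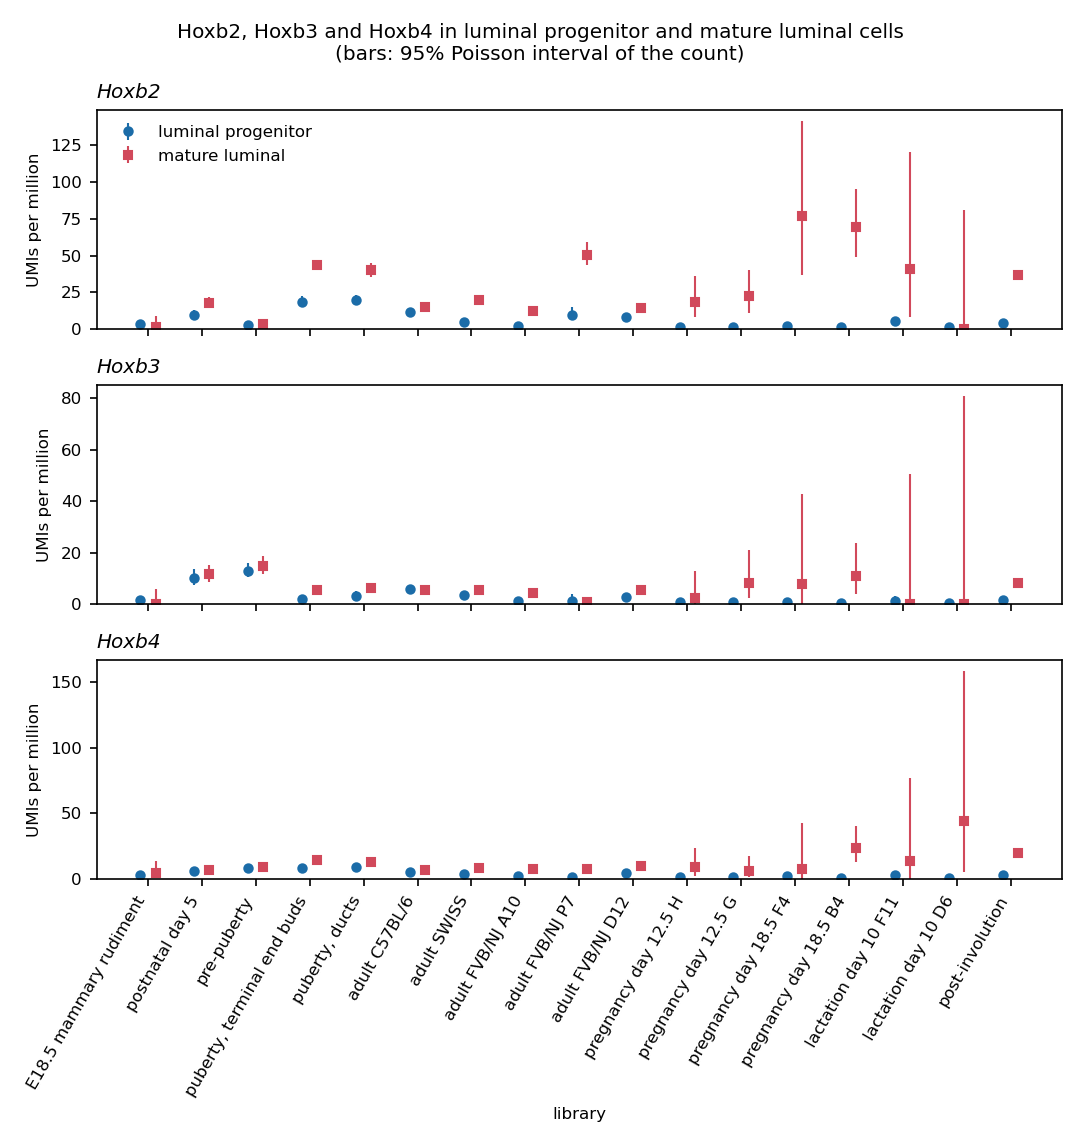
Levels (UMIs per 1000000) of Hoxb2, Hoxb3 and Hoxb4 in LP (circles) and ML (squares) cells of each of 17 mammary libraries, with bars for 95% Poisson intervals. Hoxb4 is higher in ML cells in 17 of 17 libraries, Hoxb2 in 15 and Hoxb3 in 12.

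To see which HOX genes belonged to the mesenchyme, fibroblasts were compared with the epithelium of the same 11 libraries. Of 21 HOX genes tested, 17 were higher and 1 was lower in fibroblasts by edgeR's quasi-likelihood test, against 13.5% higher and 25.1% lower among 16240 genes. The median log2 difference was 4.51 over the HOX genes and −0.39 over all genes. Here too a gene could pass the filter through fibroblasts alone, so the counts are a description. The 3 genes of the epithelial trio were those that did not pass the test. The differences were 0.57 ± 0.31 for Hoxb4 (adjusted p = 0.149, higher in 9 of 11), 0.47 ± 0.38 for Hoxb3 (adjusted p = 0.35, higher in 6) and −0.36 ± 0.40 for Hoxb2 (adjusted p = 0.501, higher in 5).

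Hoxc4, Hoxc6, Hoxc9 and Hoxc10 were higher in fibroblasts in 11 of 11 libraries and their ranges did not overlap. The share of all genes with such ranges was not counted, so this is a description. The fibroblasts of P7 and F4 held 10 and 9 UMIs of Hoxc4 to Hoxc10 in all. The levels of Hoxc9, a gene of the lower thorax, were 15.6, 37.2 and 66.6 (lowest, median, highest) in fibroblasts against 0 to 0.534 in epithelium, with a log2 difference of 7.98 ± 0.48 (adjusted p = 1.21e-11). Hoxc10, a lumbar and hindlimb gene, had 8.81, 26.9 and 163 in fibroblasts, where postnatal day 5 was the highest, against 0 to 0.292 (8.48 ± 0.58, adjusted p = 8.77e-11). Hoxc6 had 17.6, 22.9 and 72.3 against 0.0256 to 5.14 (6.599 ± 0.54). Hoxc4 had 11.04, 14.1 and 45.8 against 0 to 2.67 (5.98 ± 0.67). Hoxc8 was higher in 10 of 11, with a median of 45.5 in fibroblasts, and was at 0 in the 23 fibroblasts of P7, where a single UMI amounts to a level of 15.6.

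The HoxA genes with the largest difference were Hoxa10, needed in the uterus and the posterior skeleton (7.90 ± 0.70, median 5.29 in fibroblasts), and Hoxa7 (5.40 ± 0.89, median 18.2). In HoxB, Hoxb7 had a median of 10.1 and was higher in 10 of 11 libraries (4.90 ± 0.70). HoxD was low, with differences of 4.21 ± 0.74 for Hoxd8 and 3.83 ± 1.01 for Hoxd9. Without the E18.5 and postnatal day 5 libraries Hoxc10, Hoxc9 and Hoxc8 differed by 8.97, 8.68 and 8.78, and Hoxb4, Hoxb3 and Hoxb2 by 0.25, −0.04 and −0.79. Over the C57BL/6 libraries alone, 3 in number with both young ones among them, Hoxc10 (8.15), Hoxa10 (8.0004), Hoxc9 (7.14) and Hoxb9 (4.92) passed the test, whereas Hoxc6 (5.24, adjusted p = 0.0776), Hoxc8 (4.08, adjusted p = 0.169), Hoxc4 (3.89, adjusted p = 0.143) and Hoxa7 (3.26, adjusted p = 0.432) did not. Over the FVB/NJ libraries alone these genes differed by 7.24, 8.57, 6.92 and 5.70 and passed it. The difference between the strains was not tested. Hoxc13 was at 0 in all fibroblast sums, and its call of lower in fibroblasts rested on the basal cells of postnatal day 5.

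**Figure D4:**
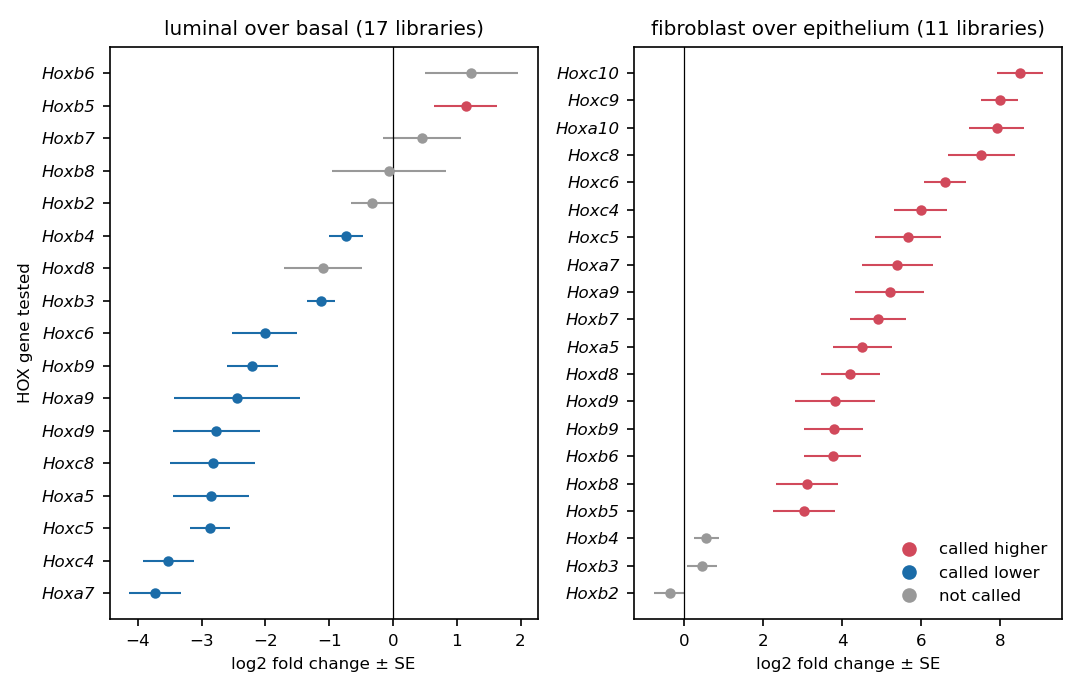
Log2 differences of HOX genes with bars for 1 SE for luminal over basal cells (left) and fibroblasts over epithelium (right), red where called higher, blue where called lower and grey where not called. Hoxc13 is left out, since it was at 0 in one of the classes. In fibroblasts the HoxC genes lie between 5.66 and 8.48, while Hoxb2, Hoxb3 and Hoxb4 lie near 0.

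Free RNA from fibroblasts can give UMIs in epithelial droplets. Held-out fibroblast markers in epithelium reached 0.374 to 6.15% of their fibroblast level (median 1.54%, 11 libraries). The summed Hoxc4 to Hoxc10 level in epithelium was 0.0951 to 6.70% of that in fibroblasts (median 0.447%) and exceeded the marker share in 3 libraries. For Hoxb2 to Hoxb4 it was 17.3 to 218% (median 90.9%) and exceeded the marker share in 11 of 11. The fibroblast counts of these 3 genes ran from 1 UMI (P7 and F4) to 133 (E18.5). The highest share came from P7 and the median from F11, which had 2, so the size of the share is uncertain. In the other 8 libraries the Hoxc4 to Hoxc10 level was at or below the marker share. The same markers were higher in basal than in luminal cells in 17 of 17 libraries, so their share need not be free RNA alone. A level above or below it therefore cannot show how much of these HOX values is free RNA. The part of free RNA in the epithelial levels, in the luminal against basal comparison too, was not tested.

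Fibroblast HOX levels also differed between young and later libraries, which is given as a description because E18.5 and postnatal day 5 have 1 library each. Hoxb9 had levels of 44.2 at E18.5 and 58.3 at postnatal day 5, but 4 UMIs in all in the 9 later libraries, of which 7 were at 0, giving a pooled level of 0.579 (95% Poisson interval 0.158 to 1.48). Without E18.5 and postnatal day 5 the genes Hoxa9, Hoxb5, Hoxb8 and Hoxb9 fell under the filter, so that their calls as higher in fibroblasts needed these libraries. For Hoxb9 (3.79 ± 0.74, adjusted p = 0.000303) levels were higher in 4 and lower in 7 of 11 libraries, and for Hoxb5 (3.04) higher in 5 and lower in 4. Hoxb8 and Hoxb5 were pooled at 0.869 (0.319 to 1.89) and 0.434 (0.0896 to 1.27) in the later libraries, where Hoxc10 was at 34.6 (30.4 to 39.3) and Hoxb3 at 5.21 (3.65 to 7.22). The young libraries are both C57BL/6, and the adult library of that strain had 3 UMIs of Hoxb9 in 606 fibroblasts, a level of 1.16 (0.240 to 3.40). Age and library cannot be told apart.

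Schwann cells, the glia of peripheral nerves, were compared with fibroblasts in the 3 libraries that held at least 20 of both, E18.5 mammary (106 Schwann cells), E18.5 skin (106) and postnatal day 5 (86). By the study's methods the E18.5 rudiments and skin came from the same embryos, so 2 of these 3 libraries are not independent and the p-values are too small. By edgeR's quasi-likelihood test 12 of 28 HOX genes were lower in Schwann cells and none was higher, and 19 had an unadjusted p under 0.05. Over 12913 genes 7.3% were lower and 6.8% higher. The median log2 difference of the 28 was −3.41, or −1.76 with the 9 genes at 0 in Schwann cells set at the bound that 3 counts give, against −0.12 over all genes. A gene could pass the filter through fibroblasts alone, so these counts are a description. DESeq2 called 7 HOX genes.

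Hoxc9 had levels of 0, 2.29 and 1.77 in Schwann cells of E18.5 mammary, E18.5 skin and postnatal day 5, against 21.4, 43.6 and 66.6 in fibroblasts (−5.07 ± 0.51, adjusted p = 0.00012). Hoxc6 had 2.67, 4.58 and 1.77 in Schwann cells (−4.07 ± 0.47, adjusted p = 0.000263). Hoxc8 was at 0 in the Schwann cells of all 3, against 23.9, 41.9 and 103 in fibroblasts. Hoxc10 differed by −4.83 ± 0.76 and Hoxb4 by −3.19 ± 0.66. The trunk genes Hoxb7, Hoxb9 and Hoxd8 did not pass the test. Hoxb7 was at 42.7, 13.7 and 17.7 in Schwann cells (0.87 ± 0.34, adjusted p = 0.139), Hoxb9 at 34.7, 45.8 and 19.5 (−0.69 ± 0.32, adjusted p = 0.208) and Hoxd8 at 13.4, 16.0 and 21.3 (−0.05 ± 0.35, adjusted p = 0.946). In the 336 Schwann cells of the pre-puberty library, which had too few fibroblasts for a pair, Hoxb7 was at 10.4, Hoxd8 at 7.80 and Hoxb9 at 1.95. The count of lower genes fell to 3 without E18.5 mammary, to 6 without postnatal day 5 and to 9 without E18.5 skin, so single calls among the 12 depend on each library.

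Stages were compared over 9 FVB/NJ libraries, 3 adult and 2 each at pregnancy day 12.5, pregnancy day 18.5 and lactation day 10. In basal cells no HOX gene of 5 tested was called in any step by edgeR, where 0.908% of 13322 genes were called from adult to day 12.5, 0% from day 12.5 to day 18.5 and 0.886% from day 18.5 to lactation. The unadjusted p was under 0.05 for 2, 0 and 1 of the 5. Hoxa7 came nearest to a call, at 4.21 ± 0.89 from day 18.5 to lactation (edgeR, adjusted p = 0.056). In luminal cells 2 of 4 HOX genes were called from adult to day 12.5, against 16.8% of 13801 genes, and 0 of 4 in the later steps, against 0.29% and 0.833%, where 0 and 1 of the 4 had an unadjusted p under 0.05.

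The called genes were Hoxb2 and Hoxb4. Luminal Hoxb2 was at 8.44, 34.5 and 12.8 in adult A10, P7 and D12, at 1.77 and 2.05 at day 12.5 (H and G), at 2.85 and 4.63 at day 18.5 (F4 and B4) and at 6.71 and 2.12 in lactation (F11 and D6). The values at pregnancy and lactation thus lay below each adult one, and the log2 difference of day 12.5 from adult was −3.03 ± 0.64 (adjusted p = 0.0142). Luminal Hoxb4 fell from 5.53, 5.32 and 8.60 to 1.59 and 1.48 (−1.93 ± 0.57, adjusted p = 0.0463). Hoxb3 differed by −1.46 ± 0.61 (adjusted p = 0.131). The remaining gene tested, Hoxb7, had a difference of 3.06 ± 1.001 (adjusted p = 0.0563), from levels of 0.0529, 0 and 0.0566 in adults, which rest on 2, 0 and 1 UMIs, and of 0.423 and 0.424 at day 12.5. Without P7, the adult with the highest Hoxb2, the differences were −2.39 for Hoxb2 (adjusted p = 0.0128), −2.11 for Hoxb4 (adjusted p = 0.0271) and −1.85 for Hoxb3 (adjusted p = 0.0129), so that Hoxb3 was then called too. Both calls were lost without H (Hoxb2 −2.92, adjusted p = 0.141) or without G (Hoxb2 −3.14, adjusted p = 0.114), and that of Hoxb4 also without A10, D12, F4 or B4 (adjusted p = 0.0638 to 0.0982).

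The make-up of the luminal layer moved with these stages. Epidermal markers, which luminal cells carry too, were at 2139, 2230 and 2941 in luminal cells of A10, P7 and D12. They were at 110 and 107 at day 12.5 (H and G), 168 and 103 at day 18.5 (F4 and B4) and 183 and 119 in lactation (F11 and D6). Their part in the stage differences was not tested. In F4, B4, F11 and D6 the held-out luminal markers, counted with the milk genes in the total, were not higher in luminal than in basal cells. This check was not repeated without the milk genes, and its part in the stage differences was not tested. ML cells were 53.9, 58.6 and 50.9% of the sub-gated luminal cells of A10, P7 and D12, 1.69 and 2.56% at day 12.5, 0.827 and 3.78% at day 18.5 and 1.76 and 1.03% in lactation. The LP sub-gate joins progenitor and alveolar cells, so it does not hold the cell type fixed across these stages. Within LP cells alone, Hoxb2 was at 2.49, 9.82 and 8.54 in adults and at 1.53 and 1.55 at day 12.5 (−1.98 ± 0.59, adjusted p = 0.0666), and Hoxb4 differed by −1.01 ± 0.73 (adjusted p = 0.405). No HOX gene was called there.

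The difference between the layers changed with stage, by a test that was added after the data were seen. It was fitted over the same 9 libraries, and at day 12.5 against adult the luminal minus basal difference of Hoxb2 changed by −4.06 ± 0.50 on the log2 scale (adjusted p = 0.00178), that of Hoxb4 by −2.17 ± 0.48 (adjusted p = 0.0202) and that of Hoxb3 by −1.69 ± 0.41 (adjusted p = 0.0314). Thus 3 of 6 HOX genes were called, against 10.4% of 14975 genes. At day 18.5 the same 3 were called against 18.6% of genes (Hoxb2 −2.86 ± 0.49, adjusted p = 0.00474), and in lactation Hoxb2 alone against 13.6% (−2.52 ± 0.58, adjusted p = 0.02). Endothelial markers were at 99.5 and 340 in the basal cells of F11 and D6, and their part in the lactation change was not tested. In units of level, luminal minus basal Hoxb2 was 4.46, 26.5 and 3.42 in the adults, −12.4 and −11.2 at day 12.5, −7.39 and −11.1 at day 18.5 and −5.72 and −11.3 in lactation. Without H or G the change of Hoxb2 at day 12.5 was −3.93 (adjusted p = 0.0409) or −4.21 (adjusted p = 0.0332) and the calls of Hoxb3 and Hoxb4 were lost. That of Hoxb4 was also lost without A10, and that of Hoxb3 without P7, D12, F4 or B4. The day 18.5 change of Hoxb2 was −2.72 (adjusted p = 0.0501) without F4 and −3.02 (adjusted p = 0.0516) without B4, and the lactation change was −1.75 (adjusted p = 0.224) without D6 and −2.57 (adjusted p = 0.0529) without A10. At day 18.5 the call of Hoxb3 was also lost without F4 or B4 and that of Hoxb4 without B4.

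E18.5 skin was compared with the E18.5 mammary rudiment. The labels call the skin sample adjacent epidermis, but 8401 of its 9026 kept cells fell in the fibroblast gate and 25 in the epithelial classes, so the comparison was made in fibroblasts, against 496 in the mammary library. The 2 groups differed in markers of other cells, with epidermal markers at a summed level of 401 in mammary and 73.8 in skin fibroblasts, held-out luminal markers at 443 and 204 and held-out fibroblast markers at 1131 and 1617. A mammary fibroblast held a median of 2 basal and 2 luminal gate markers and a skin fibroblast 0 of both, and the part of this in the ratios was not tested. The epidermal list is not specific to epidermis, as given above. With 1 library a group there is no test. A gene was called at a level ratio past 2-fold whose 95% interval lay on 1 side of 1. Of 28 HOX genes with at least 50 UMIs, 6 were higher and 2 lower in skin, where 6.87% of 12751 genes were higher and 4.83% lower. The median log2 ratio was 0.43 over the HOX genes, or 0.31 with the 2 genes at 0 in the mammary rudiment set at the bound that 3 counts give, and 0.08 over all genes. The filter adds 8401 skin and 496 mammary fibroblasts, so a gene could pass through skin alone and the counts describe the 28 genes only.

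Hoxa9 was at 23.0 in skin and 2.85 in the mammary rudiment, a ratio of 8.09 (95% interval 4.09 to 18.8, counting error only). Hoxa10 was at 32.7 against 10.3 (3.16, 2.19 to 4.74), Hoxc10 at 52.6 against 23.5 (2.24, 1.75 to 2.90) and Hoxc9 at 43.6 against 21.4 (2.04, 1.58 to 2.68). Hoxc11, a hindlimb and tail gene, had 127 UMIs in skin and 0 in mammary fibroblasts. Its ratio was 2.52 with 3 counts set for the 0, and the lower 95% limit from the counts themselves was 2.02. Hoxa5, which patterns the neck and the lung, was at 6.54 against 3.21 (2.04, 1.06 to 4.50). Hoxa11 was past 2-fold but not called, since its interval held 1 (2.22, 0.740 to 10.9). Hoxb7 and Hoxb6 went the other way, at 8.17 against 16.4 (0.499, 0.367 to 0.693) and at 3.22 against 7.83 (0.411, 0.262 to 0.675).

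Ratios close to 1 were found for Hoxb9 (45.3 against 44.2, ratio 1.03, 0.856 to 1.24), Hoxb4 (1.01, 0.758 to 1.37) and Hoxb2 (1.22, 0.905 to 1.68). Hoxb3 was lower in skin but not past 2-fold (0.666, 0.478 to 0.955). Hoxc6 and Hoxc8 were at 1.92 (1.49 to 2.52) and 1.75 (1.38 to 2.27), just inside the limit. With a stricter gate, 4 HOX genes were higher and 2 lower and Hoxc9 and Hoxc10 left the list, and with classes taken from clusters 6 were higher and 1 was lower, where Hoxa5, Hoxc9 and Hoxb7 left the list and Hoxd1 and Hoxc6 entered it. With at least 1000 genes per cell, 5 were higher and 2 lower, and Hoxc9 left the list. Hoxc9 was thus called under none of these alternatives. In the epithelial classes, with 25 cells in skin, Hoxb2 was at 34.5 (7 UMIs) against 3.18 in the mammary rudiment, a ratio of 10.8 (4.23 to 23.3). Luminal-gated cells, 23 of the 25, had epidermal markers at 2886 in skin and 801 in the mammary rudiment and held-out fibroblast markers at 224 and 63.6, and the part of these in the ratio was not tested. Luminal cells of later mammary libraries had epidermal markers at up to 4054. With 1 library of each, tissue and library cannot be told apart.

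**Figure D5:**
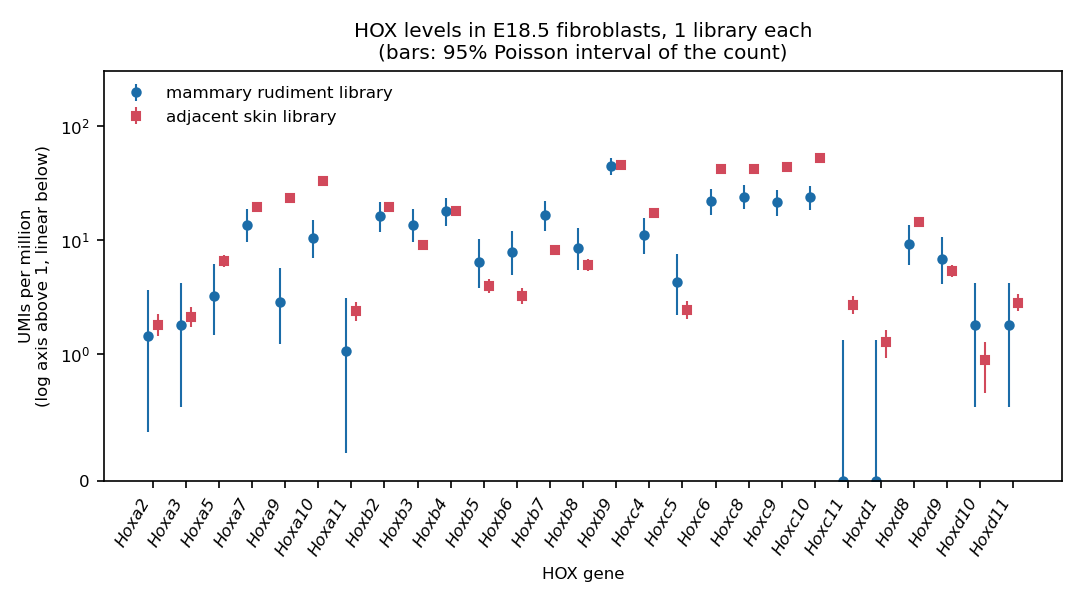
Levels (UMIs per 1000000, on an axis that is logarithmic above 1 and linear below) of named HOX genes with at least 50 UMIs in fibroblasts of E18.5 skin (squares) and of the E18.5 mammary rudiment (circles), with bars for 95% Poisson intervals. Hoxa9, Hoxa10 and Hoxc10 are higher in skin and Hoxb6 and Hoxb7 are lower, with intervals that do not overlap.

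Other genes of HOX regulation were read from lists. TALE proteins (Pbx, Meis and Pknox) bind DNA together with HOX proteins. In fibroblasts against epithelium 3 of 9 were higher and none was lower (13.5% and 25.1% of all genes), led by Meis2 at 5.84 ± 0.66. In ML against LP cells 4 of 9 were higher (20% of all genes), Meis1 at 2.47, Pbx4 at 1.78, Meis3 at 0.79 and Pbx2 at 0.28, and 2 were lower (24.5% of all genes), among them Pbx3 at −1.06. In luminal against basal cells 2 of 9 were higher, Pbx4 at 2.50 and Pbx2 at 0.47, and 5 were lower, among them Pknox2 at −3.95 and Pbx3 at −1.95, where 32.8% of all genes were higher and 30.8% lower. Genes that mark position in mesenchyme, such as En1 (10.91), Tbx15 (8.13) and Tbx5 (8.08), were higher in fibroblasts than in epithelium in 8 of 8 cases. They were listed for being mesenchymal and could pass the filter through fibroblasts alone, so this count and the next were close to fixed by the choice. Against fibroblasts, Schwann cells had lower values in 8 of 9 of these genes and in 3 of 9 TALE genes (among them Meis2 at −3.34 and Meis1 at −2.91), with Pax3, a neural crest gene, higher by 5.36. Of all genes 7.3% were lower and 6.8% higher there.

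Polycomb and trithorax genes, which keep HOX clusters shut or open, were read beside the same shares of all genes. Of 14 tested, 1 was higher and 2 were lower in fibroblasts than in epithelium (13.5% and 25.1% of all genes), 1 was higher and 1 lower in ML than in LP cells (20% and 24.5%), and 2 were higher and 5 lower in luminal than in basal cells (32.8% and 30.8%). Among genes of the retinoic acid signal, which opens HOX genes in the embryo, 5 of 8 were higher and none was lower in fibroblasts, and 2 of 8 were higher and 4 lower in luminal than in basal cells, beside those shares. The noncoding transcript Hoxb3os, which lies beside Hoxb3, was lower in luminal than in basal cells (−1.23), higher in ML than in LP cells (0.98 ± 0.23) and lower in fibroblasts than in epithelium (−1.96), and its reads can be told from those of Hoxb3 only where strand was used in counting. Hotairm1, a noncoding transcript of the HoxA cluster, was lower in luminal than in basal cells (−2.98) and higher in fibroblasts (3.69).

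The 16 members under 200 UMIs had at most 180 each, and Hoxc12 had none. Among them were Hoxa13, Hoxb13, Hoxd12 and Hoxd13, the genes at the posterior ends of their clusters, and the 2 features of Hoxd4. In all, 11 members passed the filter in no comparison. Among the described members not yet named, Hoxa3 and Hoxd11 were low throughout, at a median of 0 in basal and luminal cells and with highest levels of 4.93 and 4.21 in fibroblasts, and Hoxd10 was at most 2.23 in basal cells and 1.78 in fibroblasts. The annotated Hoxa3 gene spans Hoxa4 to Hoxa6 on the same strand, and Hoxd3 overlaps Hoxd4, so that reads could be shared between these genes too.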

How the data were processed

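Cells were captured with the 10x Chromium 3′ kit, and the authors deposited 1 count matrix of UMIs per library, made by Cell Ranger (version 3.1.0 in the submitters' processing notes) on mm10. The deposited counts are raw, with no normalization, and hold 149371 barcodes. Cells were kept with at least 500 genes and below the limits that the study set for each library on genes, UMIs and mitochondrial share. No doublet caller was run beyond these limits. Pairs of libraries within barcode set 1 shared 5967 barcodes, against 6000.12 that random draws from 1 common barcode list would give. Within set 2 they shared 85, against 436 by the same list. Pairs of set 1 with set 2 shared 17, against 1082, and pairs of set 2 with set 1 shared 53, against 3021. Set 2 may thus use another list, and then 436 is not what random draws give.

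A cell entered a class with at least 3 of 8 markers detected and a lead of 2 over the next class, and luminal cells an ML or LP sub-gate with at least 2 markers and a lead of 1. Raw counts were summed per library and class with at least 20 cells, and genes with at least 50 UMIs over a comparison were tested. edgeR 4.0.16 (R 4.3.3) gave TMM factors, the quasi-likelihood test with the library as a block, and Benjamini-Hochberg adjusted p-values over all genes tested. The SE of a log2 difference is its size divided by the square root of F. DESeq2 1.42.0, no scaling, RLE scaling, no filter, filterByExpr, a stricter gate (4 markers, lead of 3), at least 1000 genes per cell, classes from Leiden clusters (scanpy 1.11.5, HOX genes left out, 2000 variable genes, 20 components, 15 neighbours, resolution 1.0), milk genes left out, no block, library subsets and each library left out were alternatives. Poisson intervals (95%) cover counting error only. Fits were tested on simulated data.

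Members, gene lists and tests were chosen with earlier results of these data known. Members with at least 200 UMIs were named, and per-library values follow the calls. Coordinates are from GENCODE M21 (GRCm38), promoter windows from RefSeq on GRCm38.p6. Windows of Hoxb2, Hoxb3, Hoxc6, Hoxc8, Hoxc9 and Hoxc10 were not used here. Values of 2 genes that were tested are not reported here.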

Additional observations from a re-analysis of the deposited data

Results flagged for a closer look

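The luminal minus basal level of Hoxb2 was above 0 in the 3 FVB/NJ adults and below 0 in the 6 libraries of pregnancy and lactation, while the post-involution library, with 23.1 in luminal and 10.1 in basal cells, was not part of this comparison. Its mean was 11.5 UMIs per 1000000 in the 3 adult libraries, −11.8 in the 2 of pregnancy day 12.5, −9.25 in the 2 of pregnancy day 18.5 and −8.5 in the 2 of lactation day 10. The adult values were 4.46 for A10, 26.5 for P7 and 3.42 for D12, and the adult mean without P7 was 3.94.

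The change of the log2 luminal minus basal difference against adult was past the threshold of edgeR's quasi-likelihood test in 7 cases, by a test added after the data were seen. At pregnancy day 12.5 it was −4.06 for Hoxb2, −2.17 for Hoxb4 and −1.69 for Hoxb3. At pregnancy day 18.5 it was −2.86 for Hoxb2, −2.37 for Hoxb4 and −1.84 for Hoxb3, and at lactation day 10 it was −2.52 for Hoxb2. Of these 7 calls, 6 were lost without at least 1 of the 9 libraries, and that of Hoxb2 at day 12.5 was kept without each (adjusted p = 0.0409 without H and 0.0332 without G). The day 18.5 call of Hoxb2 was lost without F4 (adjusted p = 0.0501) or B4 (adjusted p = 0.0516), and the lactation call without D6 (adjusted p = 0.224) or A10 (adjusted p = 0.0529). The share of ML cells moved with these stages, as given beside the stage results. In lactation, endothelial markers were at 99.5 and 340 in the basal cells of F11 and D6, and their part was not tested. Within LP cells the level of Hoxb2 at day 12.5 differed from adult by −1.98 ± 0.59 (adjusted p = 0.0666), against −3.03 over all luminal cells, and the luminal minus basal change within LP cells was not tested.

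In data outside the comparisons, endothelial cells of the lactation libraries had high levels of Hoxd8, Hoxd9 and Hoxd10. Hoxd9 was at 198 in F11 and 268 in D6, Hoxd8 at 101 and 142, and Hoxd10 at 50.7 and 100. No labelled group has 4 or more libraries, so no single library was tested as standing apart.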

How the results depend on the processing

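Counts of HOX genes past the threshold are given here under settings that moved them by more than 1.5 times. Luminal against basal cells, 13 genes became 2 with edgeR's filterByExpr, 7 in the libraries of barcode set 2 (postnatal day 5, pre-puberty, adult C57BL/6 and SWISS), 8 in FVB/NJ and 8 without E18.5 and postnatal day 5. For fibroblasts against epithelium, 18 became 7 with filterByExpr, 4 in set 2, 7 in FVB/NJ and 4 in C57BL/6. For ML against LP cells, 3 became 0 in set 2 and 1 in C57BL/6. For Schwann cells, 12 became 7 with DESeq2. For lactation against pregnancy day 18.5, 0 became 1 with DESeq2, 2 with no filter and 1 with filterByExpr in basal cells, and 1 with no filter in luminal cells. For luminal day 12.5 against adult, 2 became 1 with the stricter gate, 1 with 1000 genes per cell and 0 in LP cells. For skin against mammary Schwann cells, 0 became 1 with cluster classes. Leaving out single libraries gave 10 to 13, 16 to 18, 3 to 4 and 3 to 9 in these 4 class comparisons, 0 to 1 for basal lactation against day 18.5 (1 without P7 or D12), 0 to 3 for luminal day 12.5 against adult (0 without H or G), and 1 to 3, 0 to 3 and 0 to 1 for the change of the layer difference at day 12.5, day 18.5 and lactation. Fits with fewer genes or libraries have fewer to call, and the cause was otherwise not tested. Without the replicate block, 12, 17 and 3 genes were called in the first 3 comparisons, and the 12 were all lower in luminal cells. Of single values 30 changed sign, of which 2 had been past the threshold, Hoxb4 in luminal against basal cells at 0.083 in set 2 (adjusted p = 0.87), and Hoxc13 in fibroblasts against epithelium at 4.79 with DESeq2 (adjusted p = 0.189). With no scaling, the median of all genes moved to −0.28 in luminal against basal cells, where 0 HOX genes were higher and 13 lower, and to 0.07 in fibroblasts. In all, 217 counts kept within 1.5 times and 34 did not, and of single values 1423 kept their direction and side of the threshold, 134 fell short of it and 2 gained it.

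The other 28 sign changes were past the threshold in neither fit. Hoxb2 in luminal against basal cells was 0.074 in set 2. In fibroblasts against epithelium Hoxb3 was −0.035 without E18.5 and postnatal day 5, −0.067 against basal cells and −0.079 against contractile basal cells, and Hoxb2 was 0.013 with no scaling, 0.37 in C57BL/6 and 0.0028 against contractile basal cells. In basal day 12.5 against adult, Hoxb4 was 0.076 with no filter, 0.0049 with the stricter gate, 0.095 with 1000 genes per cell, 0.0088 in contractile cells and −0.33 to 0.43 without single libraries, and Hoxb3 was −0.30 to 0.66 without these. In basal day 18.5 against day 12.5, Hoxb2 was −0.52 to 0.022 without single libraries. In basal lactation against day 18.5, Hoxb3 was 0.47 with 1000 genes per cell and −0.84 to 0.34 without single libraries, and Hoxb2 was −0.59 with no scaling, −0.75 with 1000 genes per cell and −0.18 to 0.36 without single libraries. In luminal cells Hoxb3 was −0.099 with no scaling in day 18.5 against day 12.5. In luminal lactation against day 18.5 with no scaling, Hoxb4 was −1.18 and Hoxb2 −1.004, Hoxb3 was 0.43 in LP cells, and without single libraries the 3 genes ran from −1.16 to 1.05, −0.53 to 1.05 and −0.70 to 0.43.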

Other observations

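Endothelial cells, which line blood vessels and were meant to be removed by the sort, were found in 6 mammary libraries (910 cells, 21 to 592 in a library). Their pooled HOX level was 712, and 62.6% of their HOX UMIs came from the HoxD cluster. Beside Hoxd8, Hoxd9 and Hoxd10, Hoxa7 ran from 33.2 to 123 over the 6 libraries, and in D6 Hoxb4 was at 31.7 and Hoxb7 at 30.6. Hoxc13 and Hoxd11 had no UMI in endothelial cells.

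Adipocytes passed the gate in 2 libraries (577 cells). Their 2 levels were 52.5 and 43.8 for Hoxa7, 27.8 and 46.0 for Hoxc8, and 30.9 and 10.9 for Hoxc9. Epidermal cells passed it in 3 libraries (569 cells), and Hoxa7 was at 110 in those of D6. These classes were compared in no test.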
